A study of Mus musculus and Rattus norvegicus with 8 samples.

Results

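The cell cycle and DNA replication genes are 41 genes whose products copy DNA or drive a cell through division. They were named as a list by symbol, with earlier results of these data known. Their signal was followed in lung RNA from ventilated and spontaneously breathing rats and mice. A gene was measured by probe sets, groups of short probes on an expression array, that carry its symbol and no other gene's. All 41 had such a probe set in at least 1 species, out of 9933 genes with one in the whole series. The series holds 8 arrays of total RNA from frozen lung tissue, with 2 arrays in each group. The ventilated rats were male Wistar animals 8 weeks old, given mechanical breaths of 12 ml/kg of room air for 5 h. The control rats had the same strain, sex and age and breathed on their own through the same kind of tracheal cannula. The ventilated mice were male C57BL6 animals of 7 to 8 weeks, given either 17 ml/kg for 6 h or 35 ml/kg for 2 h, and the labels do not say which array had which. The control mice had the same strain, sex and age and breathed on their own, and no cannula is named for them. The labels list LPS as a keyword and assign it to no array. They name the arrays of a group as separate samples only, so every p-value measures the spread between these arrays, which may be technical. Where a single ventilated or control rat or mouse is counted or numbered below, its array is meant.

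The cell cycle runs from G1, through DNA synthesis in S phase and a second gap, to mitosis. Cyclins D and E with their kinases Cdk4 and Cdk2 start S phase, the MCM helicase opens the DNA, and the polymerases, the sliding clamp Pcna and DNA ligase copy it. Cyclins A and B with Cdk1 start mitosis, and the spindle checkpoint holds chromosome separation until every chromosome is attached. Most of these transcripts are made in cycling cells and are low in resting tissue, so in healthy adult lung, where few cells divide, they are sparse. In whole tissue, fewer cells of a type and less RNA per cell cannot be told apart.

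The rat arrays measured 26 of the 41 genes, and 24 passed a filter that set aside genes with a mean signal at or under the 25th percentile. Pola1 and Kif11 did not pass. No probe set carried only their symbol for Ccna2, Ccnb2, Ccne2, Aurka, Birc5, Bub1, Mad2l1, Mcm2, Mcm3, Mcm4, Lig1, Rrm1, Rrm2, Tk1 or the proliferation marker Mki67. The mouse arrays measured 37 genes, and 33 passed. Ccne2, Mcm6, Prim1 and Bub1 did not pass, and Bub1b, Ccnb1, Cdc25b and Tyms had no mouse probe set of their own. All signals below are array brightness on a linear scale after quantile normalisation within a species, and differences are ventilated minus control on the log2 scale, where values under a floor (11.475 in rat, 14.25 in mouse) were raised to it. Signals of different genes are not on 1 scale, so only arrays are compared for a gene. Signals of the 2 replicates correlated across genes at 0.977 in ventilated rats and 0.967 in control rats, and at 0.908 in ventilated mice and 0.935 in control mice.

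In ventilated rat lung these genes lay mostly above the control level, and Pcna was the 1 gene of the 24 that passed the test. Pcna, the clamp that holds DNA polymerase on its template, read 808 and 733 in ventilated rats, against 503 and 477 in control rats. Its mean signal was 771 ± 53.1 in ventilated rats and 490 ± 18.8 in control rats (SD, n = 2 each). The difference was 0.65 ± 0.12 (SE), a 1.57-fold higher signal, with an adjusted p of 0.0371 (limma, Benjamini-Hochberg over all 3876 rat genes tested). No member was called lower. Among all rat genes tested 2.48% were called higher and 3.3% lower (5.78% in either direction), so 1 of 24 is close to the background. A second Pcna probe set read 419 and 419 in ventilated rats, against 236 and 258 in control rats, so both probe sets separated the groups.

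Both ventilated rats lay above both controls for 15 of the 24 genes, below both for Ccnd1 alone, and the groups overlapped for 8. Over all rat genes tested, 27.7% lay above and 27.1% below in this way. The difference was positive for 19 of the 24 genes, with a median of 0.48, and the median over all genes was -0.01. The list was chosen with earlier results of these data known, so these shares describe it and test nothing. With 2 arrays against 2, an exact two-sided permutation test of a single gene cannot give a p below 0.333, and an adjusted p comes only from limma, which pools the spread over genes. At an unadjusted p under 0.05, 11 members were higher and 0 lower, where 13.1% of all genes were higher and 12.2% lower. At a looser adjusted p under 0.10, the 6 genes higher were Pcna, Bub1b, Ccnb1, Cdk4, Mcm5 and Stmn1, against 6.27% of all genes, and 0 members were lower, against 6.09%. The call for Pcna was lost without any 1 of the 4 rat arrays (adjusted p 0.313 and 0.302 without a ventilated array, 0.151 and 0.181 without a control), and then 0 genes of the whole array were called. With all arrays kept the call was also lost with a floor at the 40th percentile (adjusted p 0.0942), with no filter (0.112), without a variance trend (0.124) and with the replicate number as a block (0.0714).

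**Figure D1:**
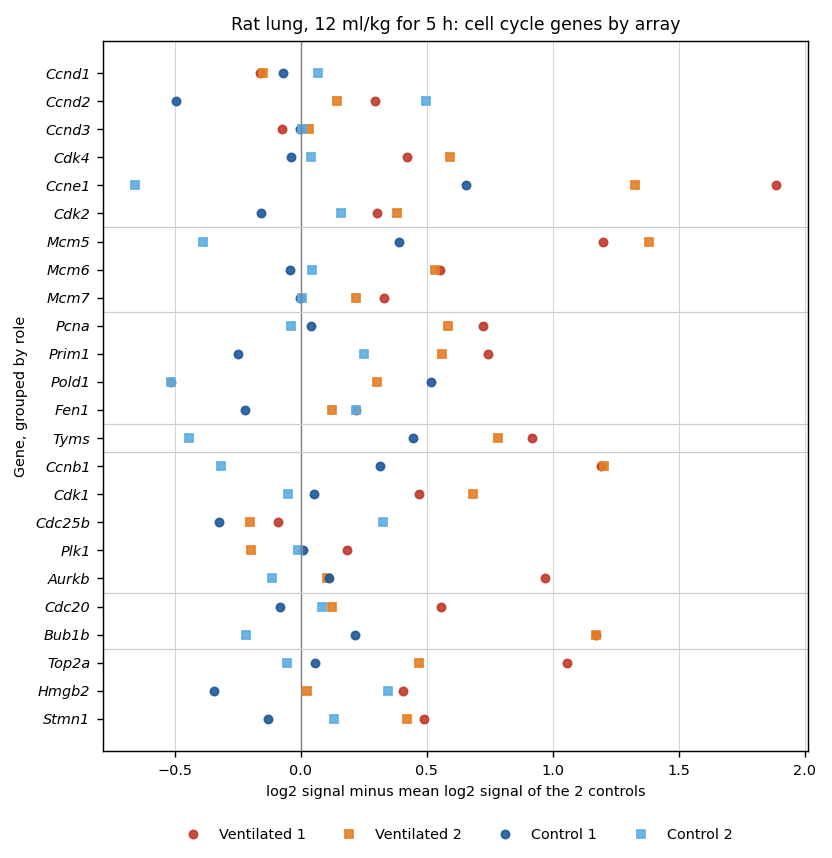
Signal of each of the 24 rat genes on each array (log2 signal minus the mean of the 2 controls), with the 2 ventilated and 2 control arrays as separate points and genes grouped by role. Both ventilated points lie to the right of both controls for 15 genes, and to the left for Ccnd1 alone. Over all rat genes tested, 27.7% lay above both controls and 27.1% below.

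The stretch of DNA before a gene's start is where factors that time its transcription bind, and motifs named CCAAT, CHR and E2F are known from cell cycle promoters. The promoters below belong to the genes under an adjusted p of 0.10 in rat that have an entry in the RefSeq promoter table, and to Cdk1, whose window holds all 3 motifs. They are mouse sequences of build GRCm38.p6, the 250 bases before the annotated start, 5′ to 3′ along the gene, while the differences are from rat. Capitals mark the CCAAT box, which reads ATTGG on the other strand. They also mark the CHR word TTTGAA in either direction and 4 E2F words in either direction, which are TTTCCCGC, then TTTCGCGC, then TTTGCCGC and last TTTGGCGC. Pcna lies at chr2:132253181-132253430 on the minus strand, with ATTGG starting 87 bases before the start.
Pcna: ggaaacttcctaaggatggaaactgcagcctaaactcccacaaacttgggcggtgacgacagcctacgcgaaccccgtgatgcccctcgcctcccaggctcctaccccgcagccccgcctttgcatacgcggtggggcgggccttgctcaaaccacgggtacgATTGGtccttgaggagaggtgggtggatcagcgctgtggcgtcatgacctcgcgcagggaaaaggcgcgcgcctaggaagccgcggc
Bub1b lies at chr2:118597961-118598210 on the plus strand, with ATTGG at 113 bases.
Bub1b: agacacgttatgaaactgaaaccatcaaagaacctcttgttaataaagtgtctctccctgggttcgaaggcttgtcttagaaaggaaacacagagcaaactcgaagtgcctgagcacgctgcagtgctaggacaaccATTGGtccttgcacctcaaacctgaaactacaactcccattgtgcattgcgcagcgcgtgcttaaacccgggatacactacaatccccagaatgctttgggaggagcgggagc
Ccnb1 lies at chr13:100786487-100786736 on the minus strand, with CCAAT at 67 and 99 bases.
Ccnb1: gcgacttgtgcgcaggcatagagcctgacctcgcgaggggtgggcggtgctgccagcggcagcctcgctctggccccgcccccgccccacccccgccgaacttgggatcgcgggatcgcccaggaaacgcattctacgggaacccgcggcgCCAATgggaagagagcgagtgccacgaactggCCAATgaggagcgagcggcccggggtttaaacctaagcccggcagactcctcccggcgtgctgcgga
Mcm5 lies at chr8:75109259-75109508 on the plus strand, with CCAAT at 22 and 77 bases and 2 overlapping E2F words at 149 and 153 bases.
Mcm5: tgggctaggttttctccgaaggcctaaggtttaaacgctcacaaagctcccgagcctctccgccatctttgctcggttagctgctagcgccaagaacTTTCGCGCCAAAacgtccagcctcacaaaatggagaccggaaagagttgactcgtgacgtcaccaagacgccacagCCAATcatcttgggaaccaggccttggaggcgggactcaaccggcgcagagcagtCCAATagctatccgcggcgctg
Cdk1 lies at chr10:69352913-69353162 on the minus strand, with ATTGG nearest at 48 and 80 bases, TTTGAA at 15 and 71 bases and an E2F word at 131 bases.
Cdk1: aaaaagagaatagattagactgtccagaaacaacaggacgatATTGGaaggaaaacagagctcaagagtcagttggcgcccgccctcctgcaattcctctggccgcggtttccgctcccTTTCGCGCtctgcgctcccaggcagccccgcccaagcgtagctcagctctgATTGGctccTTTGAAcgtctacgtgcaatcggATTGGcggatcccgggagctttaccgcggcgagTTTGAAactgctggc
Cdk4 lies at chr10:127063285-127063534 on the plus strand, and none of these letters is in its window.
Cdk4: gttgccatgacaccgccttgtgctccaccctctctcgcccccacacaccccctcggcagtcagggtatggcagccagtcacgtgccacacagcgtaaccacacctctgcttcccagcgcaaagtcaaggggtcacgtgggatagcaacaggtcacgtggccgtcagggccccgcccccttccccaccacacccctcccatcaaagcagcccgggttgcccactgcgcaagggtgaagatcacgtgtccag

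Of 39 promoter windows of 34 members, 66.7% hold CCAAT in either direction, against 33.9% of all 32841 mouse windows of that length. TTTGAA is in 23.1% of the members' windows and 16% of all, and an E2F word in 15.4% and 1.86%. These are letter matches, and no binding was measured.

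Among the genes that start S phase, Ccne1, Cdk4 and Cdk2 lay above the controls in rat and the D cyclins did not. Cdk4, the kinase partner of the D cyclins, read 530 and 598 in ventilated rats, against 386 and 408 in control rats (0.51 ± 0.13, adjusted p 0.0788, limma). Ccne1, cyclin E, read 66.9 and 45.4 in ventilated rats, against 28.6 and 9.68 in control rats, the last under the floor (1.61 ± 0.47, adjusted p 0.105). The other Ccne1 probe set, with no array under the floor, read 37.4 and 44.3 in ventilated rats, against 30.1 and 18.5 in control rats. Tested by itself, it had a smaller difference of 0.79 ± 0.33 (adjusted p 0.197, limma). Both ventilated arrays are above both controls for Cdk4 and for Ccne1, where 27.7% of all rat genes tested were. Cdk2, the cyclin E partner, separated by a smaller step, at 23.5 and 24.8 in ventilated rats against 17.1 and 21.2 in control rats (0.34 ± 0.29, adjusted p 0.521). Ccnd1, cyclin D1, which growth factors induce, read 425 and 428 in ventilated rats, against 453 and 499 in control rats (-0.16 ± 0.13, adjusted p 0.50). By brightest probe set, Ccnd1 is the 1 member with both ventilated arrays below the controls. The other D cyclins overlapped on their brightest probe sets. Ccnd2 read 355 and 319 in ventilated rats, against 205 and 408 in control rats. Ccnd3 read 497 and 535 in ventilated rats, against 522 and 525 in control rats. A dimmer Ccnd3 probe set lay below the controls, at 259 and 244 in ventilated rats against 297 and 297 in control rats. Another overlapped, at 82.5 and 115 in ventilated rats against 84.4 and 63.45 in control rats.

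All 3 rat MCM genes, subunits of the helicase that unwinds DNA at replication origins, lay above the controls. Over all rat genes tested, 27.7% did so. Mcm5 read 34.8 and 39.5 in ventilated rats, against 19.9 and 11.6 in control rats, the last just above the floor (1.29 ± 0.35, adjusted p 0.0874). Mcm6 read 131 and 129 in ventilated rats, against 87.0 and 92.2 in control rats (0.54 ± 0.18, adjusted p 0.124). Mcm7 read 244 and 226 in ventilated rats, against 194 and 195 in control rats (0.27 ± 0.15, adjusted p 0.308, limma). The arrays separate for each of the 3 subunits, and the difference of none passed the test.

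At the fork, Prim1, the primase subunit that lays the RNA primer, read 68.7 and 60.4 in ventilated rats, against 34.5 and 48.8 in control rats (0.65 ± 0.26, adjusted p 0.190). Fen1, the nuclease that removes the primer flap, overlapped, at 47.8 and 44.7 in ventilated rats against 35.3 and 47.9 in control rats. Pold1, the catalytic subunit of polymerase delta, read 10.4 and 20.2 in ventilated rats, against 23.5 and 9.93 in control rats, with 1 array of each group under the floor. Tyms, thymidylate synthase, the 1 gene of deoxynucleotide supply measured in rat, read 33.1 and 30.2 in ventilated rats, against 23.9 and 12.9 in control rats (0.85 ± 0.37, adjusted p 0.219, limma). Prim1 and Tyms thus separate the groups, as Pcna does, and Fen1 and Pold1 do not. Of all rat genes tested, 27.7% lay above both controls.

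Of the genes that drive mitosis in rat, Ccnb1 and Cdk1 lay above the controls, as 27.7% of all rat genes tested did. Ccnb1, cyclin B1, read 93.5 and 94.2 in ventilated rats, against 50.9 and 32.9 in control rats (1.20 ± 0.27, adjusted p 0.0583, limma). Cdk1, its kinase, read 105 and 122 in ventilated rats, against 78.7 and 73.1 in control rats (0.58 ± 0.19, adjusted p 0.134). Aurkb, the Aurora kinase of the chromosomal passenger complex, overlapped the controls by a narrow margin, at 103 and 56.7 in ventilated rats against 57.0 and 48.8 in control rats. Plk1, a mitotic kinase, and Cdc25b, a phosphatase that activates Cdk1, did not separate either. Plk1 read 197 and 151 in ventilated rats, against 175 and 172 in control rats, and Cdc25b read 163 and 151 against 138 and 217.

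Bub1b, the spindle checkpoint protein BubR1, read 60.5 and 60.5 in ventilated rats, against 31.2 and 23.1 in control rats (1.17 ± 0.26, adjusted p 0.0568, limma). Its other, dimmer probe set did not separate the groups, at 6.85 and 28.6 in ventilated rats against 35.6 and 5.38 in control rats. Cdc20, which activates the ubiquitin ligase that ends mitosis, read 129 and 95.7 in ventilated rats, against 82.9 and 92.9 in control rats (0.34 ± 0.22, adjusted p 0.398). The second ventilated rat was just above the higher control for Cdc20.

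Top2a, the topoisomerase that untangles replicated DNA, read 304 and 202 in ventilated rats, against 152 and 141 in control rats (0.76 ± 0.23, adjusted p 0.105, limma). Stmn1, stathmin, which destabilises microtubules, read 1146 and 1094 in ventilated rats, against 746 and 893 in control rats (0.46 ± 0.13, adjusted p 0.0945). Both genes separate the groups, where 27.7% of all rat genes tested lay above both controls. Hmgb2, a chromatin protein abundant in dividing cells, overlapped on its brightest probe set, at 74.3 and 57.0 in ventilated rats against 44.0 and 71.2 in control rats.

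Several genes had more than 1 rat probe set. Of 42 probe sets above the filter, 24 lay above the controls, 5 below and 13 overlapped, where 1502 of all 5434 probe sets tested lay above (27.6%) and 1486 below. When each probe set was tested by itself, 4 of them, from Pcna, Ccnb1 and Top2a, were called higher, and 2.76% of all probe sets tested were. The second Ccnb1 probe set read 80.7 and 81.8 in ventilated rats, against 30.1 and 27.5 in control rats (1.5 ± 0.23, adjusted p 0.0189, limma). A further Top2a probe set read 88.7 and 96.3 in ventilated rats, against 44.3 and 47.0 in control rats (1.02 ± 0.21, adjusted p 0.0409). In Ccnb1 and Top2a, then, the brightest probe set missed the threshold and a dimmer one of the same gene passed it. For Ccnd1, 4 of 5 probe sets lay below the controls and 1 overlapped.

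A wider list of 119 symbols of other cell cycle genes had 30 measured and tested in rat. Of these 2 rose and 0 fell, against 2.48% and 3.3% of all rat genes tested. The ventilated arrays lay above both controls for 17 and below both for 5, against 27.7% and 27.1% of all genes, with a median difference of 0.36. Rpa3, a subunit of the protein that coats single-stranded DNA, read 172 and 123 in ventilated rats, against 45.0 and 48.4 in control rats (1.64 ± 0.23, adjusted p 0.0181, limma). H2az1, the histone variant H2A.Z, read 872 and 1032 in ventilated rats, against 420 and 484 in control rats (1.07 ± 0.14, adjusted p 0.0157). Both ventilated arrays are well above the controls in these 2 genes. The 6 CDK inhibitors and pocket proteins, which restrain the cycle, had a median difference of -0.42, and 0 of 6 passed the test. The difference was negative for 5 and positive for 1. Both ventilated arrays lay above both controls for 1 and below both for 1, and 4 overlapped. The 1 gene at a limma unadjusted p under 0.05 was higher, where 13.1% of all rat genes were higher. Cdkn1a, the inhibitor p21, read 47.0 and 24.7 in ventilated rats, against 32.4 and 76.0 in control rats.

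Markers of other cell types differed between the same rat arrays. Of 23 T cell marker symbols 12 were tested, and 10 were called higher and 0 lower, against 2.48% and 3.3% of all rat genes tested. Their summed signal was 7520 and 8300 in ventilated rats, against 915 and 795 in control rats. Thy1, a surface protein of rat thymocytes and some other cells, read 1715 and 2219 in ventilated rats, against 59.9 and 40.1 in control rats, and Cd3g, a chain of the T cell receptor complex, read 961 and 997 against 48.5 and 43.6. Cd4 and Gata3 did not pass. Both groups separate widely for Thy1 and Cd3g. Of the 9 markers of immature thymocytes, cells that divide, 1 was tested, Arpp21, at 95.8 and 68.5 in ventilated rats against 80.1 and 81.8 in control rats.

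The 5 brown and white fat markers tested were all called higher, with sums of 2337 and 2416 in ventilated rats, against 350 and 330 in control rats. Of 5 hepatocyte markers, 2 were called higher (sums 749 and 782 in ventilated rats, 324 and 325 in control rats). Among all rat genes tested 2.48% were called higher and 3.3% lower. The 5 erythroid markers gave sums of 1609 and 1804 in ventilated rats, against 1411 and 1457 in control rats. Both ventilated arrays were above both controls for 4 of the 5 and below both for 1, where 27.7% and 27.1% of all rat genes were. The median erythroid difference was 0.70, the lowest was -0.82, and 0 of the 5 passed the test. Lung epithelial markers were present in both groups, with sums of 14043 and 15477 in ventilated rats, against 17285 and 17700 in control rats, and 2 of 8 were called lower. Of 6 endothelial markers 1 was called lower, with sums of 1432 and 1494 in ventilated rats, against 2549 and 1925 in control rats. Cd79b, the 1 B cell marker tested, was called lower, and no myeloid progenitor marker was tested. The part of these cell types in the cell cycle differences was not tested.

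**Figure D2:**
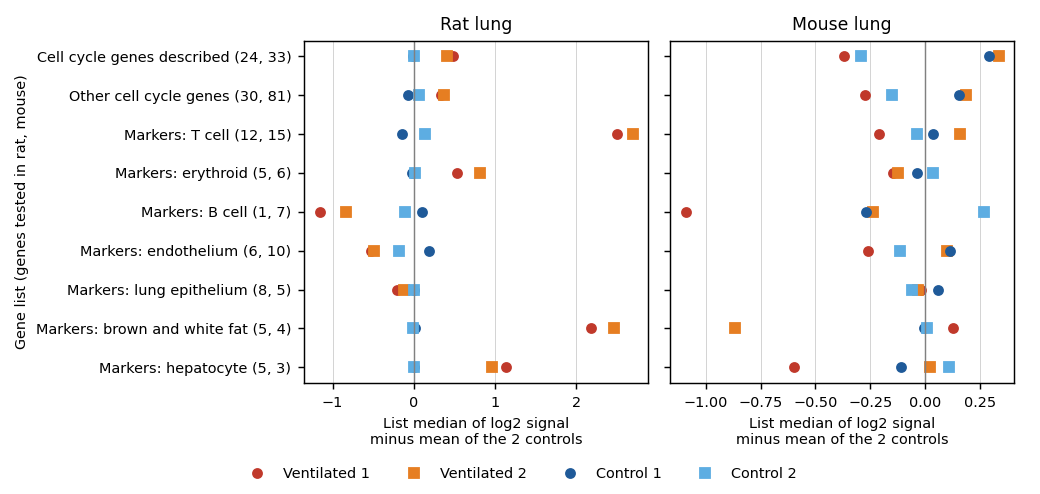
Median over each gene list of the log2 signal minus the mean of the 2 controls, by array, for rat (left) and mouse (right), with the number of genes tested in each species beside the list's name and a wider axis in rat. In rat both ventilated points of the cell cycle genes lie right of both controls, while in mouse each group has 1 array on either side.

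**Figure D3:**
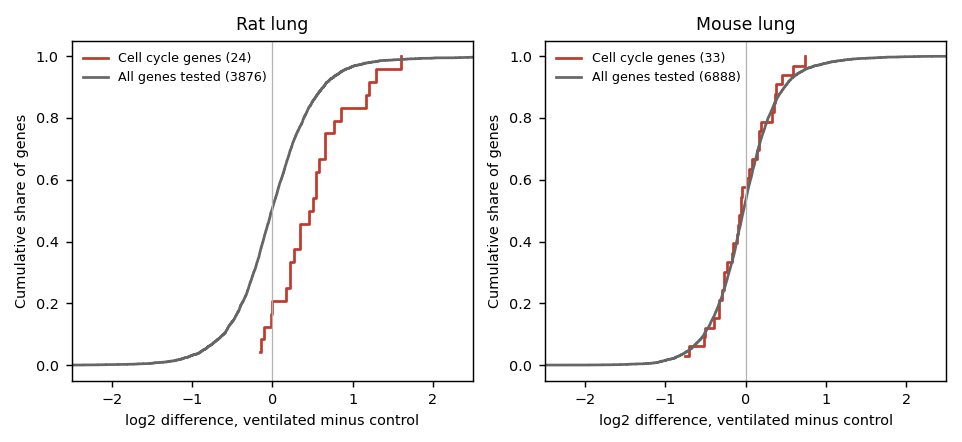
Cumulative share of genes against the log2 difference, ventilated minus control, for the cell cycle genes and for all genes tested in each species (24 of 3876 in rat, 33 of 6888 in mouse). The rat curve of the cell cycle genes lies right of that of all genes (medians 0.48 and -0.01), and in mouse the curves lie together (medians -0.06 and -0.03).

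In mouse lung, 0 of the 33 genes passed the test in either direction, as did 0% of all 6888 genes (limma, adjusted p 0.9997 for every member). At an unadjusted p under 0.05 there were 0 members, against 1.61% of all genes higher and 0.973% lower. Fits without the variance trend or with a robust prior also called 0. Both ventilated mice lay above both controls for 4 genes, Ccne1, Mcm2, Pcna and Kif11, and below both for Ccnd1, where 12.9% and 14.5% of all genes did so. The other 28 overlapped. The difference was positive for 14 genes and negative for 19, from -0.75 (Tk1) to 0.75 (Rrm1).

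The 4 genes above the controls differed from them by small steps. Pcna read 434 and 437 in ventilated mice, against 362 and 334 in control mice (0.32 ± 0.25). Ccne1 read 134 and 162 in ventilated mice, against 120 and 80.2 in control mice (0.58 ± 0.35). Mcm2, a subunit of the same helicase as Mcm5, read 98.1 and 109 in ventilated mice, against 88.6 and 92.3 in control mice. These differences are each under 2 standard errors. Kif11, the kinesin that pushes spindle poles apart, was dim at 24.9 and 25.8 in ventilated mice, against 22.1 and 23.1 in control mice. Ccnd1 read 557 and 666 in ventilated mice, against 688 and 848 in control mice (-0.33 ± 0.26), and its other probe set overlapped.

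In mouse the arrays of a group differed from each other more than the groups did. Tk1, thymidine kinase of the S phase, read 22.1 and 144 in ventilated mice, against 132 and 68.3 in control mice. Stmn1 read 332 and 1075 in ventilated mice, against 1136 and 641 in control mice. The first ventilated mouse is lowest and the second control lower than the first in both genes. Mki67, the proliferation marker Ki-67, read 25.8 and 113 in ventilated mice, against 92.6 and 28.0 in control mice. Cdk1 read 13.1 and 102 in ventilated mice, against 65.4 and 32.3 in control mice, and Top2a read 2.05 and 51.4 against 40 and 14.6. In both the first ventilated array was under the floor. Ccnb2, cyclin B2, read 126 and 275 in ventilated mice, against 295 and 161 in control mice, and Mcm3 read 69.1 and 210 against 198 and 126. Aurkb had its ventilated arrays in the opposite order, at 63.6 and 23.4 in ventilated mice, against 85.5 and 46.0 in control mice.

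The second ventilated mouse was above the first in 31 of the 33 genes (93.9%), against 51.4% of all genes tested. The first control was above the second in 28 of 33 (84.8%), against 51.8% of all genes. The median absolute log2 step between the ventilated arrays was 0.81 for these genes and 0.41 for all genes, and between the controls 0.59 and 0.35. The other cell cycle genes leaned the same way, at 63 of 81 between the ventilated mice and 56 of 81 between the controls. In rat the steps between replicates were smaller, with medians of 0.15 in ventilated rats and 0.29 in controls, and the second ventilated rat was above the first in 8 of 24 genes. The summed signal of the 33 genes was 3968 and 6080 in ventilated mice, against 6046 and 4634 in control mice.

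The markers of other cell types were set beside these steps in mouse. The summed signal of 15 T cell markers was 926 and 1300 in ventilated mice, against 1337 and 1074 in control mice, and that of 10 endothelial markers 7736 and 10188 against 9423 and 7679. Both sums have the order of the cell cycle sum within each group. Between the ventilated mice, 13 of 15 T cell and 7 of 10 endothelial markers were higher in the second. Between the controls, 10 of 15 and 8 of 10 were higher in the first. The median log2 step from the second control to the first was 0.07 and 0.23, against 0.58 for the cell cycle genes. Erythroid markers gave sums of 1005 and 1846 in ventilated mice, against 1588 and 1363 in control mice, also in the order of the cell cycle sum. Gene by gene, the second ventilated mouse was above the first in 3 of 6 and the first control above the second in 3 of 6. B cell markers gave 771 and 1276 in ventilated mice, against 1181 and 2132 in control mice, so their controls are in the opposite order. Lung epithelial markers gave 25007 and 23998 in ventilated mice, against 25481 and 24234 in control mice. The part of these cell types in the steps between replicates was not tested. The tidal volume of each ventilated mouse is not labelled, so the step between the 2 ventilated arrays and a difference of regimen cannot be told apart. The array's own 66 control probe sets had median deposited signals of 34.6 and 20.4 in ventilated mice, against 24.5 and 20.95 in control mice. Over the 12422 other probe sets the medians were 62.1 and 55.65 in ventilated mice, against 63.6 and 58.6 in control mice. The part of array quality in the step was not tested.

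Because of that spread, single arrays set the direction in mouse. Without the first ventilated array the difference was positive for 29 of 33 genes and the median was 0.34, and without the second ventilated array it was positive for 11 of 32. Without the first control it was positive for 23 of 33 and without the second for 10. In rat 18 to 21 of 24 or 25 genes were positive whichever array was left out.

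**Figure D4:**
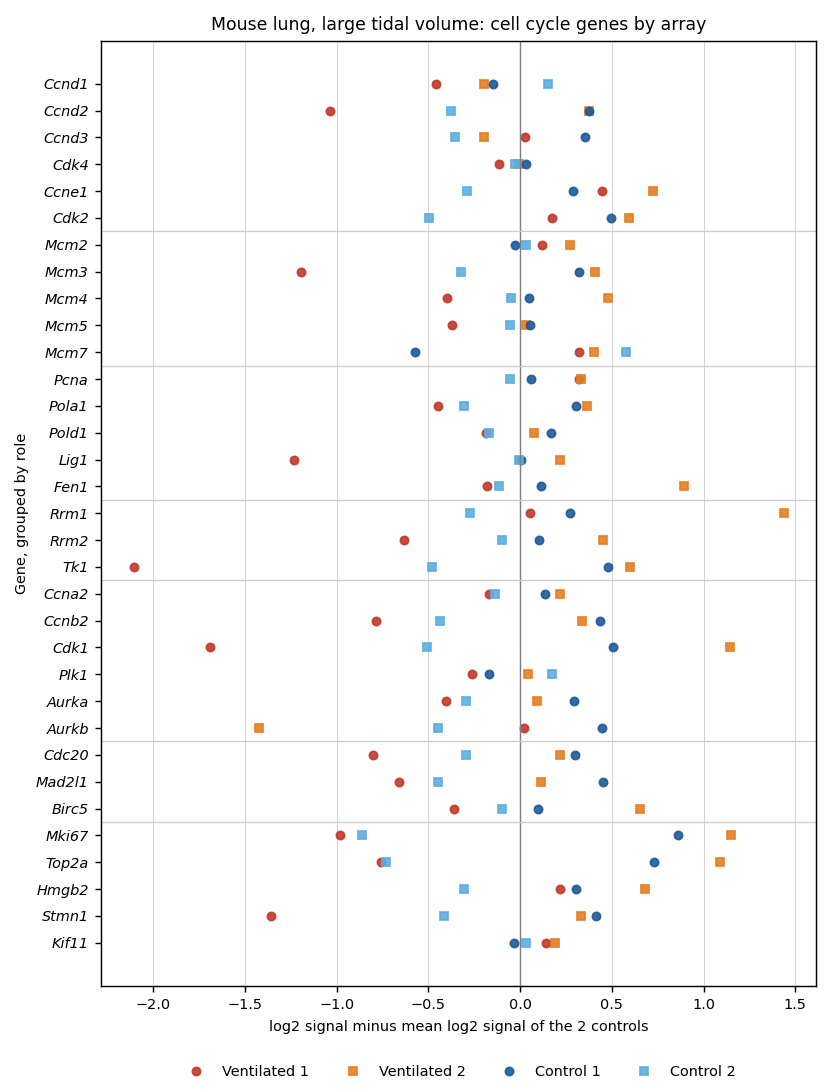
Signal of each of the 33 mouse genes on each array (log2 signal minus the mean of the 2 controls), with the 2 ventilated and 2 control arrays as separate points and genes grouped by role. The second ventilated array lies right of the first in 31 genes, and the first control right of the second in 28.

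Of the wider list, 81 genes were tested in mouse and 0 called. Cdkn1a, the p21 inhibitor that stops the cycle after p53 activation, had the highest difference of the 81. It read 864 and 467 in ventilated mice, against 164 and 162 in control mice (1.97 ± 0.36, limma unadjusted p 0.00124, adjusted p 0.9997). Both ventilated arrays are far above the controls, and the difference did not pass the adjusted test. Over all mouse genes tested, 12.9% had both ventilated arrays above both controls. The other 80 genes of that list did not pass at an unadjusted p under 0.05, where 1.61% of all genes were higher and 0.973% lower.

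Whether rat and mouse differed was tested as rat minus mouse difference in 1 limma fit over 2256 genes shared by symbol, of which 18 are members. The fit called 0 of the 18, and 0.133% of all shared genes. Rat exceeded mouse in 13 of 18, with a median of 0.44, against 50.9% and 0.02 over all shared genes. Mcm5 had the lowest adjusted p of the 18, 0.29, with a rat minus mouse difference of 1.46 ± 0.49. It was also the 1 member at an unadjusted p under 0.05, where 12.7% of all shared genes were. The difference was positive in both species for 7 genes, Pcna and Ccne1 among them, negative in both for 4 and positive in rat with negative in mouse for 7. For Pcna, the rat minus mouse difference was 0.33 ± 0.25. Species, array design, tidal volume, duration and the control's cannula cannot be told apart in this comparison.

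**Figure D5:**
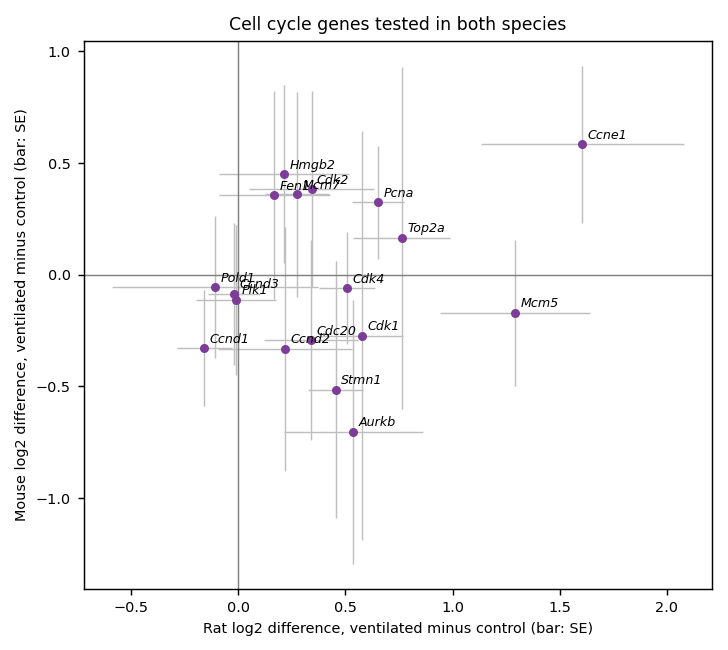
The log2 difference, ventilated minus control, in rat (horizontal axis) and mouse (vertical axis) for the 18 genes tested in both species, with standard errors as bars. 7 genes lie above 0 in both species, 4 below 0 in both and 7 above 0 in rat and below 0 in mouse, and 0 of 18 passed the test of rat minus mouse.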

How the data were processed

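Lung RNA was measured on 1-colour Affymetrix GeneChip arrays, a mouse and a rat design, per the labels. The deposited values are 1 signal intensity per probe set and array on a linear scale. The software and scaling target were not given in the sources used here, nor were detection calls. The 2% trimmed mean was near 149 to 150 on every array, and median signals ran from 42.6 to 63.6. The number of arrays limits the precision. Of 12422 mouse probe sets 10833 had 1 symbol, 396 several and 1193 none, and of 8740 rat probe sets 7006, 308 and 1426 did, in the platform annotation, which can be old.

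Intensities were quantile-normalised within a species, raised to a floor at the 25th percentile and put on the log2 scale. The brightest probe set stood for a gene, and genes at or under the 25th percentile of signal were left out (6888 mouse and 3876 rat genes stayed). limma 3.58.1 in R 4.3.3 (lmFit, eBayes with trend, Benjamini-Hochberg, adjusted p under 0.05) compared ventilated with control arrays. The fit was also run on simulated arrays with independent noise for each gene. These lack steps shared by many genes of an array, so no conclusion is drawn from them. The genes named are the 41 members and some genes of the other lists. Of the other cell cycle genes named, Rpa3 and H2az1 passed the test. Cdkn1a, Rfc4, Pttg1 and Prim2 did not, and are named for their values in these data. Members and lists were chosen with earlier results of these data known. Whether replicate numbers pair arrays is not stated in the labels. Deviations of same-numbered arrays correlated at -0.285 in mouse and -0.106 in rat. With so few arrays in a group, these values cannot decide whether the numbers pair arrays. Scaling, floor, filter, probe set rule, variance model, a replicate block and leaving out arrays were varied. The 8 scanner setup files, which contain no signals, were left out.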

Additional observations from a re-analysis of the deposited data

How the results depend on the processing

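Among the 24 rat genes, 1 was called higher as reported. The count was 3 with common median scaling (Pcna, Ccnb1 and Cdk4), 3 with cyclic loess (Pcna, Bub1b and Ccnb1), 3 with every probe set tested, 2 with a filter at the 50th percentile, 2 with probe sets averaged by gene and 6 at an adjusted p under 0.10. It was 0 with a floor at the 40th percentile, 0 with no filter, 0 without a variance trend and 0 to 0 with 1 array left out. The limma adjusted p of rat Pcna was 0.0942, 0.112 and 0.124 in the first 3 of these losses, and from 0.151 to 0.313 with 1 array left out, where a lone array is taken to vary like the other group. Its difference stayed between 0.58 and 0.79. All rat genes called numbered 224, from 23 to 479 under the alternatives that kept all arrays and 0 with 1 left out.

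The rat median of 0.48 was 0.56 with common median scaling, 0.39 with a floor at the 40th percentile, 0.40 with no filter, and 0.40 to 0.54 with 1 array left out. The mouse median of -0.06 ran from -0.31 to 0.34 with 1 array left out and from -0.09 to 0.02 otherwise. Calls among members stayed at 0 in mouse and 0 for rat minus mouse under every alternative run, while the rat minus mouse calls over all shared genes, 3 as reported, ran from 0 to 83 with 1 array left out and from 0 to 38 otherwise. The sign of the difference changed under at least 1 alternative for 27 of 33 mouse genes and for 7 of 24 rat genes. No scaling moved the median of all genes by over 0.1.

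With the replicate number as a block, 1 rat member was called higher and 146 rat genes in all, against 0 mouse genes. That member was Ccne1 (adjusted p 0.047), and Pcna had 0.0714. The labels do not say that the numbers pair arrays. With the numbers crossed, an alternative chosen after seeing the data, 1 rat member, 232 rat genes and 0 mouse genes were called. The alternatives of the rat minus mouse fit beyond the scaling and floor were also chosen after seeing the data.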

Other observations

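Probe sets that carry several symbols stood outside the comparisons. In rat, 3 of them name Hmgb2 together with its copies, so their signal cannot be assigned to 1 gene. They read 662 and 836, 663 and 703, and 888 and 981 in ventilated rats, against 349 and 490, 234 and 289, and 425 and 465 in control rats. Both ventilated arrays are above both controls in each of the 3, and the difference was not tested. The probe set that carries Hmgb2 alone and is brightest overlapped the controls, and the other one read 36.9 and 44.2 in ventilated rats against 16.2 and 27.2 in control rats.

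In mouse, Tyms was measured by 2 probe sets that also name its pseudogene. They read 20.9 and 36.7, and 19.8 and 26.6 in ventilated mice, against 23.2 and 23.6, and 22.5 and 20.2 in control mice, and the groups overlapped.

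In rat, 3 more genes of the wider list had both ventilated arrays above both controls and an adjusted p between 0.05 and 0.10 (limma). That makes 5 of 30 higher at an adjusted p under 0.10, where 6.27% of all rat genes were, and 27.7% of all rat genes lay above both controls. Rfc4, a subunit of the complex that loads Pcna onto DNA, read 72.3 and 52.1 in ventilated rats, against 17.3 and 26.7 in control rats (1.51 ± 0.33, adjusted p 0.0515). Pttg1, securin, which holds back chromosome separation, read 255 and 263 in ventilated rats, against 159 and 169 in control rats (0.66 ± 0.15, adjusted p 0.0568). Prim2, the large primase subunit that works with Prim1, read 57.3 and 72.5 in ventilated rats, against 36.4 and 34.5 in control rats (0.86 ± 0.24, adjusted p 0.0925). These 3 genes separate the groups and did not pass the test.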
